A study of Mus musculus with 72 samples.

Results

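The genes described here are those of itaconate and arginine metabolism of macrophages, measured in whole mouse colon after 2,4,6-trinitrobenzene sulfonic acid (TNBS) colitis. They are 7 genes chosen by name: Acod1, Arg1, Arg2, Slc7a2, Ass1, Asl and Odc1. For each gene the probe set of highest mean over the 72 arrays was taken from those with a single gene symbol, and 18193 genes had such a probe set. Of the 7 genes, 6 passed the filter on dim probe sets and were tested with 12534 genes in all, and Ass1 did not pass. All values below are log2 levels as deposited or differences between such levels.

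Each array held RNA from the colon of 1 wild-type BALB/c mouse, and the mice came from 2 experiments, numbered 7 and 10 by the labels. In 5 groups colitis was induced with 70 µg/g TNBS given into the rectum in ethanol, and the colon was taken on day 4. In the combination group (15 mice) the mice received TNFR-Ig, a soluble tumour necrosis factor receptor fused to immunoglobulin, at 0.3 mg/kg together with the anti-TWEAK antibody mP2D10 at 10 mg/kg. The anti-TWEAK group (14 mice) received that antibody alone at the same dose, and the TNFR-Ig group (12 mice) received TNFR-Ig alone and no antibody. The control antibody group (15 mice) received an IgG2a against human CD20 at 10 mg/kg, and the untreated colitis group (8 mice) received TNBS and none of these proteins. Agents were injected into the peritoneum before TNBS. The naive group (8 mice) had no colitis and came from experiment 10 only, whereas each colitic group was spread over both experiments. TWEAK is a cytokine of the tumour necrosis factor family. The labels of 1 naive array also name a treatment, and that mouse was kept as naive by its title. The p-values measure the spread between the mice as labelled.

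Acod1 encodes the mitochondrial enzyme that makes itaconate from cis-aconitate, an intermediate of the citrate cycle, and it is known for its strong induction in macrophages stimulated by bacterial products. Itaconate inhibits succinate dehydrogenase, and its electrophilic form alkylates KEAP1 and so activates the transcription factor NRF2. Arginine enters macrophages through cationic amino acid transporters such as Slc7a2, and is used either by nitric oxide synthase, which leaves citrulline, or by the arginases, which split it into ornithine and urea. Citrulline can be turned back into arginine by Ass1 and Asl, and ornithine feeds polyamine synthesis through Odc1 or proline synthesis. Arg1 is the cytosolic arginase, also abundant in liver, and Arg2 the mitochondrial one.

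The annotated genes lie on 6 chromosomes of the mouse assembly GRCm38.p6. Acod1 spans chr14:103047012-103056573, Arg1 spans chr10:24915207-24927470 and Arg2 spans chr12:79130788-79156301. Slc7a2 spans chr8:40862341-40922070, Ass1 spans chr2:31470270-31520670, Asl spans chr5:130011258-130024381 and Odc1 spans chr12:17544808-17551502. The promoters of Acod1 and Odc1 are shown because they belong to the member with the widest span of levels and to one whose chosen probe set varied little. Each is the 250 bases before the gene start that the RefSeq promoter table for GRCm38.p6 uses, on the plus strand, 5′ to 3′, with matches to 10 searched motifs in capitals.
Acod1, chr14:103046762-103047011: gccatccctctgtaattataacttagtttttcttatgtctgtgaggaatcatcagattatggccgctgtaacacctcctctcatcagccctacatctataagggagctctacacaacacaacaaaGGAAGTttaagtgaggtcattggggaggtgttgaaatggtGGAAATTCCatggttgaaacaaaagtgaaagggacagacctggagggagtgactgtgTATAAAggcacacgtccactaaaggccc
Odc1, chr12:17544623-17544872: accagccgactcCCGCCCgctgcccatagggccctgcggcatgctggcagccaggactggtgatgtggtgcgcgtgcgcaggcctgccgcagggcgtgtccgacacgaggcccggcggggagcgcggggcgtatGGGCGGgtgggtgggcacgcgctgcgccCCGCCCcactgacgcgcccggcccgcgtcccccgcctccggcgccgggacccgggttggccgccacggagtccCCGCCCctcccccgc
In the Acod1 promoter the capitals mark TATAAA, the core promoter element bound by TBP, with its first base 28 bases before the start. They also mark GGAAATTCC, a match to the palindrome GGANNNTCC with its first base at 85, and GGAAGT, the ETS core bound by PU.1, at 125. Searched on both strands of 32851 promoters of the same length, TATAAA was found in 12.4%, GGANNNTCC in 7.27% and GGAAGT in 19.7%. The Odc1 promoter held 4 matches to the GC box GGGCGG on either strand, at 238, 116, 88 and 15 bases before the start, and no TATAAA. A GC box was present in 32.7% of promoters. The G and C content was 44.4% for Acod1 and 80% for Odc1, against a median of 52.4% over all promoters. The other motifs searched had no match in either window. They were TGANTCA of AP-1 (6.75% of promoters), the interferon response element (2.98%), TTCNNNGAA of STAT factors (7.02%), the E-box CACGTG (6.02%), TGACNNNGC of the antioxidant response (10.2%) and the cyclic AMP element TGACGTCA (1.55%). The Odc1 start used by the table lies inside the annotated gene. Matches describe the letters of these windows only.

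Acod1, the itaconate-producing enzyme, had the widest span of levels of the tested members. In the combination group its level was 2.54 at the lowest, 8.56 at the median and 11.48 at the highest. The anti-TWEAK group ran over 4.17, 11.49 and 12.32, and the TNFR-Ig group over 9.51, 11.62 and 12.26, in the same order. The control antibody group had 4.70, 11.16 and 12.45, the untreated colitis group 8.62, 11.31 and 12.86, and the naive group 2.56, 2.56 and 2.99. Every array of the untreated colitis group lay above every naive array, and the combination group spread over nearly the whole range between them. Of the combination arrays, 8 of 15 were below the lowest untreated colitis array, against 3 of 14 in the anti-TWEAK group, 0 of 12 in the TNFR-Ig group and 3 of 15 in the control antibody group. Among naive arrays, 6 of 8 lay within 0.05 of the lowest Acod1 value of the table, so a fold against naive mice depends on that low end of the probe set.

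Arg1 showed the same kind of spread at a higher low end. Its lowest, median and highest levels were 5.95, 9.57 and 12.02 in the combination group, 7.55, 10.67 and 11.51 in the anti-TWEAK group and 9.06, 11.01 and 12.08 in the TNFR-Ig group. They were 7.75, 10.60 and 11.39 in the control antibody group, 9.29, 11.70 and 12.49 in the untreated colitis group and 3.64, 5.71 and 7.09 in the naive group. Of the combination arrays, 4 of 15 were at or below the highest naive array, and no other colitic array was. Naive colons themselves differed by more than 3 log2 units in Arg1.

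Arg2 was high in every group, including naive colon. Its levels were 9.33, 10.82 and 11.37 in the combination group, 10.09, 10.81 and 11.70 in the anti-TWEAK group and 9.98, 10.96 and 11.89 in the TNFR-Ig group. They were 9.99, 10.55 and 11.44 in the control antibody group, 10.34, 11.48 and 11.82 in the untreated colitis group and 10.02, 10.39 and 10.47 in the naive group. The naive arrays were tightly grouped and overlapped with the lower part of every colitic group, with 4 of 15 combination arrays, 3 of 14 anti-TWEAK arrays, 1 of 12 TNFR-Ig arrays, 4 of 15 control antibody arrays and 1 of 8 untreated colitis arrays at or below the highest naive array.

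Slc7a2, the cationic amino acid transporter, was at a lower level. It ran over 5.41, 6.20 and 7.38 in the combination group, 5.44, 6.18 and 8.11 in the anti-TWEAK group and 5.80, 6.69 and 9.94 in the TNFR-Ig group. It ran over 5.42, 6.20 and 7.81 in the control antibody group, 5.87, 6.66 and 8.01 in the untreated colitis group and 5.44, 5.81 and 6.15 in the naive group. All groups overlapped, and the highest TNFR-Ig array stood almost 3 log2 units above the next TNFR-Ig array of experiment 7.

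Asl, which releases arginine from argininosuccinate, and Odc1, which makes putrescine from ornithine, varied little. The lowest and highest Asl levels over the 72 arrays were 9.83 and 10.50, and those of Odc1 were 12.27 and 13.25. For Odc1 this holds for the chosen probe set. Its other probe sets ran over 11.79 to 12.84 and over a wider 8.06 to 9.86. Ass1, which joins citrulline and aspartate, was represented by a probe set at the floor of the table, 2.077, on all 72 arrays. Another probe set that matches both Ass1 and the gene Gm5424 was well above the floor, with a median of 8.52 in the combination group, 8.75 in the untreated colitis group and 8.31 in the naive group. Its signal cannot be assigned to either gene, and it was not tested as Ass1. Nos2, the inducible nitric oxide synthase that competes with arginase for arginine, was within 0.1 of the floor on 63 of the 72 arrays, and its highest level was 2.56.

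**Figure D1:**
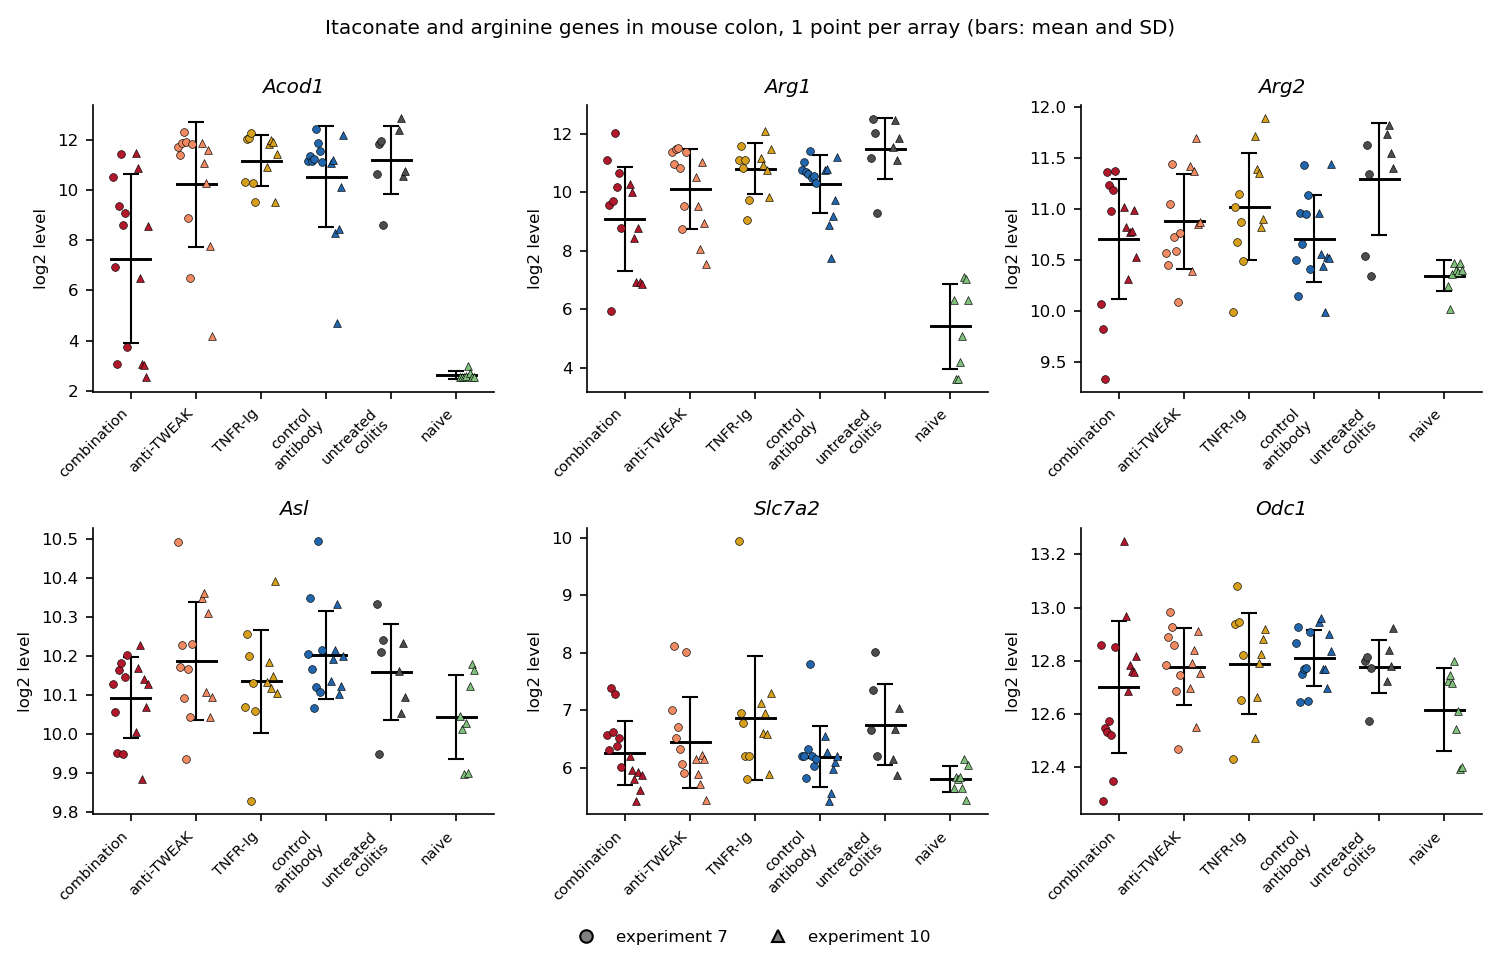
Log2 level of the tested members on each array, 1 point per array, with the combination group at the left and naive mice at the right. Bars give the mean and SD, and circles and triangles stand for experiments 7 and 10. Acod1 and Arg1 spread widely in the combination group, whereas Asl and Odc1 stayed within a narrow band in all groups.

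The plot of levels by array shows that the order of the group means differed between members. For Acod1 the order from high to low was untreated colitis, TNFR-Ig, control antibody, anti-TWEAK, combination and naive, with means of 11.21 ± 1.35 (SD, n = 8) in untreated colitis and 2.64 ± 0.15 (n = 8) in naive mice. Between them lay 11.17 ± 1.02 (n = 12) for TNFR-Ig, 10.53 ± 2.00 (n = 15) for control antibody, 10.23 ± 2.48 (n = 14) for anti-TWEAK and 7.26 ± 3.37 (n = 15) for the combination. Of the neighbours in that order, only the combination and naive groups differed in the limma fit over all genes (adjusted p = 0.00108), while the adjusted p between the other neighbours was between 0.107 and 0.988. Arg1 had the same order, with 9.08 ± 1.77 (n = 15) in the combination group, 11.49 ± 1.03 (n = 8) in untreated colitis and 5.42 ± 1.46 (n = 8) in naive mice. Again only the combination and naive groups differed as neighbours (limma, adjusted p = 1.23e-05), with 0.249 to 0.877 elsewhere. For Arg2 the order was untreated colitis, TNFR-Ig, anti-TWEAK, control antibody, combination and naive, and the control antibody and combination groups had nearly the same mean, 10.71 in both. No pair of Arg2 neighbours passed the test (limma, adjusted p = 0.0695 between combination and naive and at least 0.536 between the others). The control antibody group, 1 step further up, differed from naive in Arg2 (limma, adjusted p = 0.0387), where 52.8% of all genes were called. The combination was below untreated colitis in Acod1 (-3.98, limma adjusted p = 0.00131) and in Arg1 (-2.44, adjusted p = 0.000786). In Arg2 the combination was below untreated colitis by less (-0.58, limma adjusted p = 0.0299), and control antibody was at -0.58 against it (adjusted p = 0.0550). Untreated mice received no antibody. For Slc7a2 the order was TNFR-Ig, untreated colitis, anti-TWEAK, combination, control antibody and naive, and no pair of neighbours passed the test (limma, adjusted p between 0.497 and 0.870). Further apart, TNFR-Ig was above naive in Slc7a2 (0.77 ± 0.31, limma adjusted p = 0.0342). The other colitic groups were not called against naive in Slc7a2 (limma adjusted p between 0.0978 and 0.838). The TNFR-Ig values include the array at 9.94.

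The first comparison asked what colitis itself changed, with untreated colitic mice against naive mice. Acod1, Arg1 and Arg2 rose in untreated colitis, by a fitted 276-fold, 52.4-fold and 2.13-fold, and Odc1 rose by a small amount. The first 2 folds depend on the low end of their probe sets, since 6 of 8 naive arrays for Acod1 and 2 of 8 for Arg1 lay within 0.05 of the lowest value. The fitted log2 differences were 8.11 ± 1.10 for Acod1 (SE, limma adjusted p = 1.25e-08), 5.71 ± 0.64 for Arg1 (adjusted p = 5.67e-11) and 1.09 ± 0.24 for Arg2 (adjusted p = 0.000154). With Odc1, 4 of the 6 tested members were called higher and none lower, at an adjusted p under 0.05, where 47.8% of all tested genes were called and 22.2% were called higher. In bulk tissue a change in the number of cells that express a gene and a change in RNA per cell cannot be told apart.

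Odc1 passed narrowly, with a difference of 0.20 ± 0.09 (limma adjusted p = 0.0493), and its call was lost in 42 of the 72 fits that each left out 1 array. Within experiment 10 its difference was not called (limma adjusted p = 0.0906), where 41.9% of all genes were. Its other probe sets gave 0.37 (adjusted p = 0.0262) and 0.22 (adjusted p = 0.0625) when every probe set was tested. Asl differed by 0.12 ± 0.06 (limma adjusted p = 0.113) and Slc7a2 by 0.65 ± 0.33 (limma adjusted p = 0.0978). Slc7a2 was called without replicate 1 of the TNFR-Ig group of experiment 7, with 0.70 and an adjusted p of 0.0319. Because naive mice came from experiment 10 only, the comparison was repeated there with 4 untreated colitic mice. The differences were 9.01 for Acod1, 6.32 for Arg1 and 1.28 for Arg2, with an exact two-sided permutation p of 0.00202 for each, the smallest that the 495 possible arrangements allow. The same permutation gave an unadjusted p of 0.0101 for Slc7a2, 0.0404 for Odc1 and 0.164 for Asl. Control antibody was above naive in Asl (0.16, limma adjusted p = 0.0125) and Odc1 (0.23, adjusted p = 0.00773), where 52.8% of all genes were called. So was anti-TWEAK, in Asl (0.15, limma adjusted p = 0.0308) and Odc1 (0.20, adjusted p = 0.0282). TNFR-Ig was above naive in Odc1 (0.21, limma adjusted p = 0.0263) but not called in Asl (adjusted p = 0.178). The combination was called in neither.

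Cell type markers moved in the same comparison. Of the macrophage markers, 15 of 16 tested rose and 1 fell in untreated colitis, with a median log2 difference of 1.79 against -0.01 for all tested genes. Fcgr1, an Fc receptor, rose by 4.20 and Cd68, a lysosomal macrophage protein, by 2.74, while Mertk, the receptor for dying cells, fell by 0.84. Of the neutrophil markers, 11 of 11 tested rose, with a median of 6.93, led by S100a8 at 9.77. Of the colonocyte markers, 12 of 14 fell, with a median of -0.32. The mean log2 level of the neutrophil markers was 8.00 to 11.29 in untreated colitis and 2.45 to 3.78 in naive mice, and that of the macrophage markers was 8.92 to 10.55 and 7.83 to 8.36 in the same order. The part of these markers in the differences of Acod1, Arg1 and Arg2 was not tested. Of the hepatocyte markers, Alb and Fgb were within 0.1 of the floor on all 72 arrays and Apoa1 on 70, and Apoa2 was at 2.22 to 2.59. Ttr was at 11.44 to 12.75 and Cyp2e1 at 2.077 to 12.04 in the same arrays, and neither was called in this comparison. A part of liver RNA in the Arg1 values was not tested.

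Markers of alternative macrophage activation, the state in which Arg1 is known to be induced by interleukin 4, gave a mixed picture in untreated colitis. Of 5 tested, 4 rose and 1 fell. Chil3, a chitinase-like protein that is also made by neutrophils and their precursors, rose by 9.02, Il4ra, a chain of the interleukin 4 receptor, rose by 1.66, and Clec10a, a lectin receptor, rose by 1.35. Retnla, a secreted protein induced by interleukin 4, fell by 1.66.

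Of the other pathway genes around arginine, polyamines and itaconate, 28 of 59 tested were called in untreated colitis against naive, 16 higher and 12 lower. That is 47.5%, near the 47.8% of all tested genes, so the count says nothing particular to these pathways, and the values are given as a description. Of 9 tested transport genes, 4 rose and 3 fell, with a median of -0.01. Slc7a6, a transporter that exchanges cationic for neutral amino acids, rose by 0.91 and its heavy chain Slc3a2 by 0.42, while the epithelial pair Slc7a9 and Slc3a1 fell by 0.65 and 0.64. Of 4 tested genes of the urea cycle and arginine synthesis, Otc and Cps1, the intestinal enzymes that make citrulline, fell by 1.13 and 0.54, and Aldh18a1, which starts ornithine synthesis from glutamate, rose by 0.51. Among 4 tested genes of arginine consumption, 2 rose. These were Gch1, the first enzyme in the synthesis of the nitric oxide synthase cofactor, by 0.46, and Ddah1, which breaks down methylated arginines, by 0.39. Of 3 tested genes from ornithine to proline, only P4ha1, a prolyl hydroxylase of collagen, rose, by 0.80.

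Downstream of Odc1, 4 of 11 tested polyamine genes rose and 1 fell in untreated colitis, with a median of 0.06. Srm, spermidine synthase, rose by 1.11, Smox, spermine oxidase, by 0.89, and Atp13a2, a lysosomal polyamine exporter, by 0.63, while Azin1, the antizyme inhibitor, fell by 0.14. Around itaconate, the 18 tested citrate cycle genes had a median of -0.05, with 2 higher and 2 lower. Clybl, the mitochondrial enzyme that disposes of citramalyl-CoA in the breakdown of itaconate, fell by 0.48. Of 10 genes of the response to itaconate and NRF2, 2 rose and 4 fell. Hmox1, heme oxygenase, rose by 4.19 ± 0.41 (limma adjusted p = 5.72e-13), while Nqo1, Gclc and Gclm, which are classic NRF2 targets, fell by 0.50, 0.45 and 0.33.

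**Figure D2:**
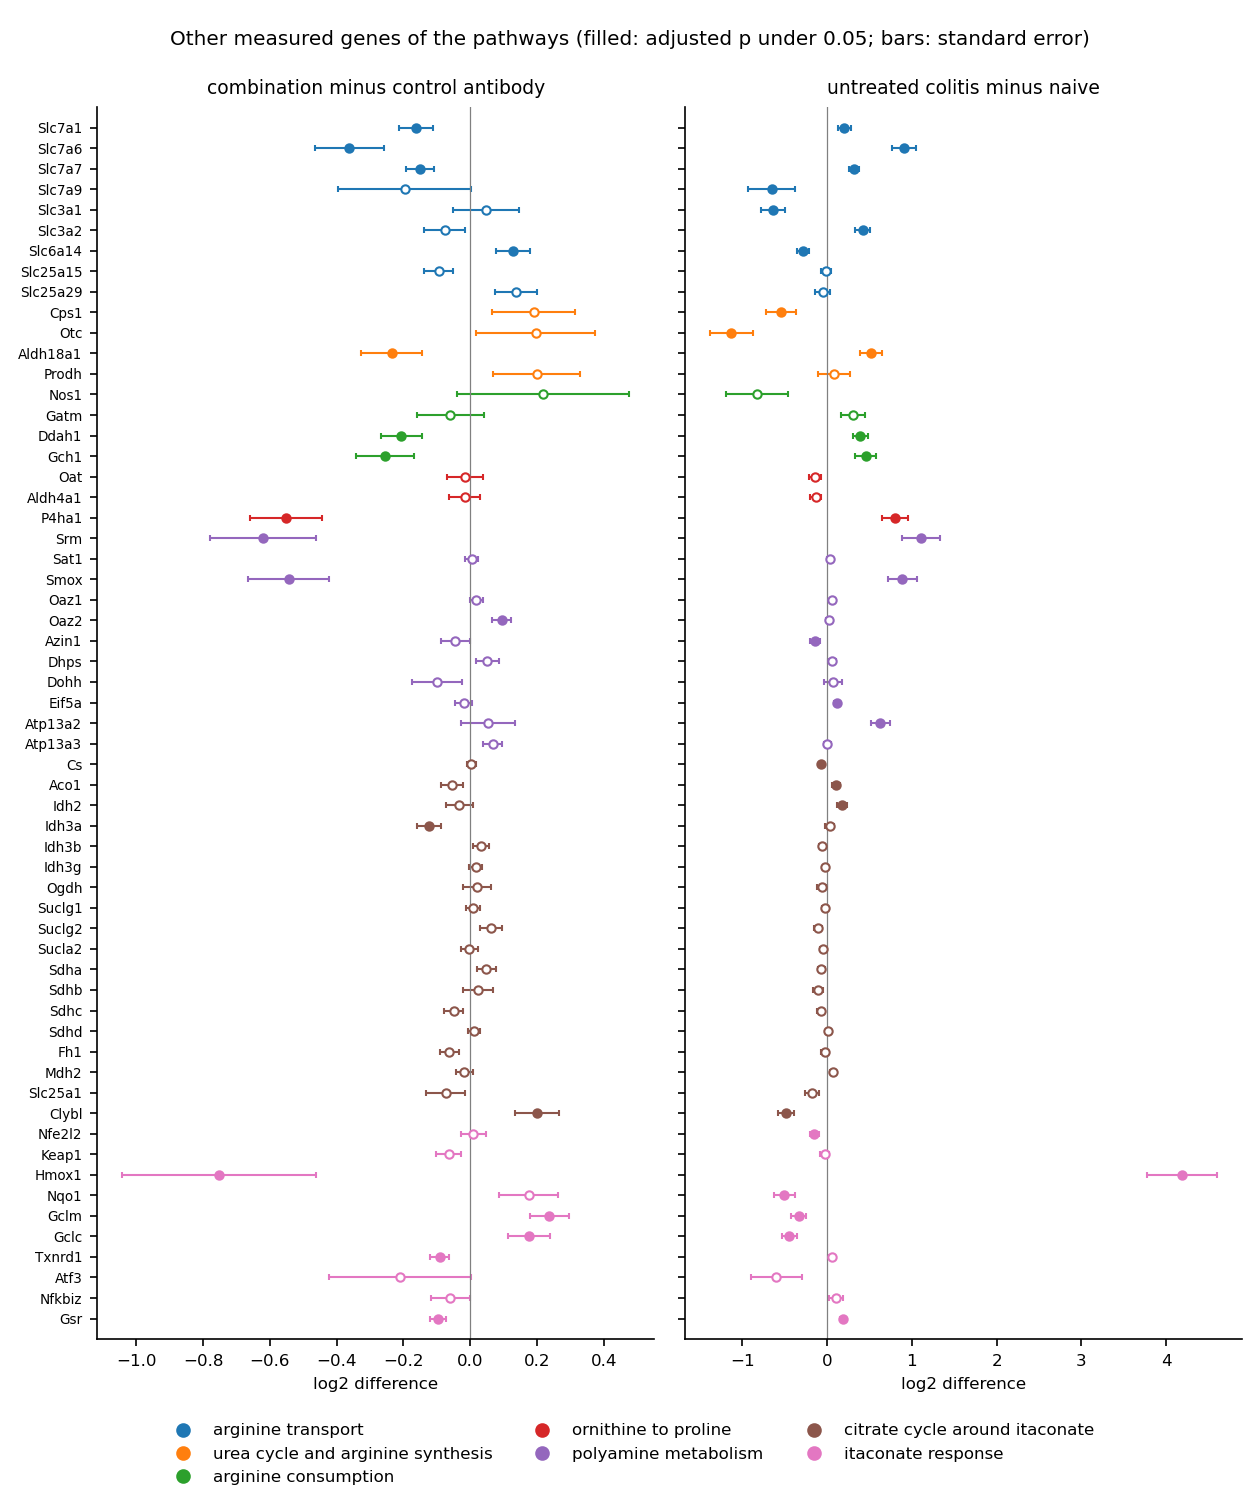
Fitted log2 differences with standard errors for the other tested genes of arginine, polyamine and itaconate metabolism, for the combination minus control antibody at the left and untreated colitis minus naive at the right. Filled points have an adjusted p under 0.05, and each panel has its own scale. Srm, Smox, P4ha1, Slc7a6 and Hmox1 lie above 0 at the right and below 0 at the left.

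The control antibody group carried colitis and an irrelevant antibody, so its difference from untreated colitis shows what that injection came with. In limma no member was called, 0 of 6, where 10.3% of all genes were, and 3 members had an unadjusted p under 0.05. Acod1 differed by -0.71 ± 0.94 (adjusted p = 0.663), Arg1 by -1.24 ± 0.55 (adjusted p = 0.128), Arg2 by -0.58 ± 0.20 (adjusted p = 0.0550) and Slc7a2 by -0.57 ± 0.28 (adjusted p = 0.179). Arg2 lay at the threshold. It was called within experiment 10 (-0.99, limma adjusted p = 0.0194, with 9.95% of all genes called) but not within experiment 7 (-0.19, adjusted p = 0.864). Over both experiments it was called in 7 fits that left out 1 array, with adjusted p between 0.0157 and 0.048. In experiment 7 these left out replicate 3 of the combination group, 1 of TNFR-Ig, 5 or 7 of control antibody, and 1 or 5 of untreated colitis, and in experiment 10 replicate 8 of control antibody. Arg1 was called without replicate 5 of the untreated colitis group of experiment 7 (-1.62, limma adjusted p = 0.0348).

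In the same comparison 13 of 16 macrophage markers fell and none rose, with a median of -0.66, and Marco, a scavenger receptor, fell by 3.75 and Adgre1, the macrophage antigen F4/80, fell by 1.15. Of 11 neutrophil markers, 3 fell, and Hmox1 fell by 1.17 ± 0.35 (limma adjusted p = 0.0242). Gch1 and Ddah1 rose by 0.36 and 0.24, and Oaz2, an antizyme that turns Odc1 over, fell by 0.16. The mean level of the macrophage markers was 8.76 to 9.89 in the control antibody group and 8.92 to 10.55 in untreated colitis. Whether this difference bears on the members' values was not tested.

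The single agents were set against the control antibody group, and TNFR-Ig also against untreated colitis because these mice had no antibody. With anti-TWEAK, 0 of 6 members were called in limma, where 2.8% of all genes were, and none had an unadjusted p under 0.05. Acod1 differed by -0.34 ± 0.80 (adjusted p = 0.875) and Arg1 by -0.20 ± 0.46 (adjusted p = 0.877). With TNFR-Ig against the control antibody 0 of 6 were called, where 4.08% of all genes were, and only Slc7a2 had an unadjusted p under 0.05. Acod1 differed by 0.67 ± 0.83 (limma adjusted p = 0.682), Arg1 by 0.56 ± 0.48 (adjusted p = 0.530), Arg2 by 0.31 (adjusted p = 0.329) and Slc7a2 by 0.69 ± 0.25 (adjusted p = 0.0941). The Slc7a2 difference was called when either of 2 arrays of experiment 7 was left out. It was 0.79 (limma adjusted p = 0.0431) without replicate 5 of the control antibody group and 0.82 (adjusted p = 0.0346) without replicate 5 of the TNFR-Ig group. Against untreated colitis, TNFR-Ig gave 0 of 6 calls in limma, where 3.01% of all genes were called, with no unadjusted p under 0.05, at -0.04 ± 0.98 for Acod1 (adjusted p = 0.988) and -0.68 ± 0.57 for Arg1 (adjusted p = 0.563).

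The combination was compared with the control antibody group, which had the same antibody dose. Acod1 was 9.70-fold lower and Arg1 2.29-fold lower in the combination group, and the other 4 tested members were not called. The fitted differences were -3.28 ± 0.78 for Acod1 (limma adjusted p = 0.00133) and -1.19 ± 0.46 for Arg1 (limma adjusted p = 0.0386). These 2 of 6 calls stand beside 31.2% of all tested genes called in this comparison. A two-sided permutation of the labels within experiments gave an unadjusted p of 0.00277 for Acod1 and 0.0181 for Arg1. For the members not called in limma it gave 0.0101 for Asl, 0.0887 for Odc1, 0.701 for Slc7a2 and 0.994 for Arg2. The permutation p of Asl was thus below that of Arg1.

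For Acod1 the difference was -3.65 within experiment 7 (limma adjusted p = 0.0136) and -2.85 within experiment 10 (limma adjusted p = 0.0978), where 19.8% and 9.69% of all genes were called. In experiment 7 the control antibody arrays were all at 11.13 or above, and the combination arrays ran over 3.06 to 11.45. Replicates 7 and 8 of these combination arrays, at 9.07 and 3.72, ran with experiment 10 by the labels. No control antibody array of experiment 7 did, so the array runs were not alike on both sides. In experiment 10 the combination arrays ran over 2.54 to 11.48 and the control antibody arrays over 4.70 to 12.21. Both groups thus held low arrays in experiment 10. Acod1 remained called in every fit that left out 1 of the 72 arrays.

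The Arg1 call was less stable. It was not reached within experiment 7 (-0.98, limma adjusted p = 0.255) or within experiment 10 (-1.44, adjusted p = 0.142), and it was lost in 10 of the 72 fits that left out 1 array, with adjusted p between 0.0534 and 0.0966. The arrays concerned were replicates 3 and 8 of experiment 7 and 5, 7 and 8 of experiment 10 in the combination group, and replicates 2 and 5 of experiment 7 and 1, 2 and 8 of experiment 10 in the control antibody group. The smallest size was -0.94, without replicate 3 of the combination group of experiment 7.

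Among the members not called, Asl differed by -0.11 ± 0.05 (limma adjusted p = 0.0596), and was called in 7 of the fits that left out 1 array, with adjusted p between 0.044 and 0.049. In experiment 7 these left out replicate 8 of the combination group, 1 of anti-TWEAK, 4 of TNFR-Ig, or 4 or 7 of control antibody, and in experiment 10 replicate 3 of the combination group or 6 of control antibody. Odc1 differed by -0.11 ± 0.06 (limma adjusted p = 0.166). Its other 2 probe sets differed by -0.34 (adjusted p = 0.00782) and -0.21 (adjusted p = 0.0194) when every probe set was tested, so the Odc1 call depends on the probe set. Within experiment 7 the chosen probe set gave -0.22 (limma adjusted p = 0.0397), and without replicate 1 of the combination group of experiment 10 it gave -0.15 (adjusted p = 0.0443). Slc7a2 differed by 0.07 ± 0.24 (limma adjusted p = 0.856) and Arg2 by -0.00 ± 0.17 (limma adjusted p = 0.996).

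**Figure D3:**
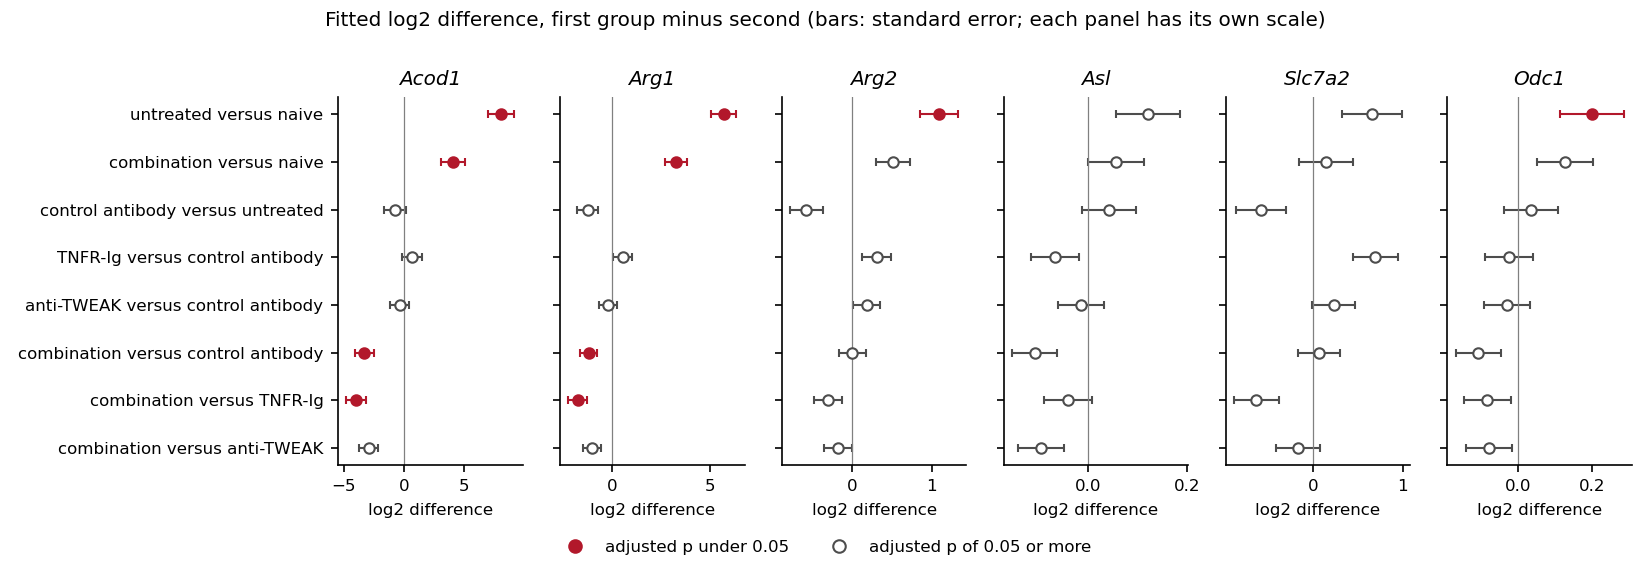
Fitted log2 differences, first group minus second, with standard errors, for the 6 tested members in 8 comparisons. Filled points have an adjusted p under 0.05, and each panel has its own scale. Acod1 and Arg1 are lower in the combination group than with control antibody or TNFR-Ig, and higher in the combination group than in naive mice.

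Of the neutrophil markers, 8 of 11 fell in the combination group against the control antibody group, with a median of -2.09 against -0.00 for all tested genes. Stfa2l1, a protease inhibitor of the stefin family, fell by 2.76, Il1r2, the decoy receptor for interleukin 1, fell by 2.65, and Cxcr2, a chemokine receptor, fell by 2.37. Of 16 macrophage markers, Mertk rose by 0.41, Cd14 fell by 0.54, and the median was -0.05. The mean level of the neutrophil markers was 3.53 to 9.10 in the combination group and 5.90 to 10.80 in the control antibody group, and that of the macrophage markers was 8.47 to 9.72 and 8.76 to 9.89 in the same order. The alternative activation markers had a median of -0.17, with Chil3 lower by 2.56 and Retnla higher by 0.55. The part of the neutrophil markers in the Acod1 and Arg1 differences was not tested.

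Markers of exocrine pancreas also differed between arrays of every group, with a mean log2 level between 3.85 and 13.57. Of 6 tested, none was called between the combination and control antibody groups over both experiments, and 5 were higher within experiment 7. With this marker mean as a covariate, an alternative chosen after the data were seen, the Acod1 difference between combination and control antibody was -3.53 (limma adjusted p = 0.000507). That value is for Acod1 only, and the same covariate moved counts of called members in other comparisons, given below. The part of pancreas RNA in the members' values was not otherwise tested.

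Of the other pathway genes, 18 of 59 tested were called in the combination against the control antibody, or 30.5%, near the 31.2% of all tested genes, so the count says nothing particular to these pathways. Of the 9 transport genes, Slc7a6, Slc7a1 and Slc7a7 fell by 0.36, 0.16 and 0.15, and Slc6a14, an epithelial amino acid transporter, rose by 0.13. Aldh18a1 fell by 0.24, Gch1 by 0.25, Ddah1 by 0.21 and P4ha1 by 0.55. Of the 11 polyamine genes, Srm fell by 0.62 and Smox by 0.54, and Oaz2 rose by 0.09. Of the 18 citrate cycle genes, Idh3a, an isocitrate dehydrogenase subunit, fell by 0.12 and Clybl rose by 0.20. Of the 10 response genes 3 fell and 2 rose, with Hmox1 lower by 0.75 (limma adjusted p = 0.0400), Gsr lower by 0.10, and Gclm and Gclc higher by 0.24 and 0.18. The medians of these lists lay between -0.13 and 0.19.

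The combination was also set against each agent alone. Combination mice received an antibody at 10 mg/kg and TNFR-Ig mice received none. Any effect of antibody injection therefore stays in the comparison with TNFR-Ig, and its part was not tested. Against TNFR-Ig, Acod1 fell by 3.95 on the log2 scale (SE 0.83, limma adjusted p = 0.00375) and Arg1 by 1.75 (SE 0.48, limma adjusted p = 0.0199). These were 2 of 6 members, where 6.71% of all genes were called. Within experiment 7 neither was called (Acod1 -3.24 with limma adjusted p = 0.0725, Arg1 -0.82 with adjusted p = 0.449), and within experiment 10 both were (Acod1 -4.68 with adjusted p = 0.0207, Arg1 -2.73 with adjusted p = 0.0173). Of all genes, 5.84% were called within experiment 7 and 2.63% within experiment 10. Slc7a2 differed by -0.62 (limma adjusted p = 0.115), and by -0.75 (adjusted p = 0.0495) without replicate 5 of the TNFR-Ig group of experiment 7. Against TNFR-Ig 9 of 16 macrophage markers and 9 of 11 neutrophil markers fell.

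Against anti-TWEAK alone, 0 of 6 members and 0% of all genes were called in limma, although 2258 genes and 3 members had an unadjusted p under 0.05. Acod1 differed by -2.93 ± 0.80 (adjusted p = 0.107) and Arg1 by -0.998 ± 0.46 (adjusted p = 0.249). The Acod1 difference was called when any of 3 arrays was left out. It was -3.25 (limma adjusted p = 0.0421) without replicate 7 of the anti-TWEAK group of experiment 7, -3.14 (adjusted p = 0.0478) without replicate 1 of the combination group of experiment 7 and -3.23 (adjusted p = 0.0439) without replicate 2 of the combination group of experiment 10.

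The departure from additivity on the log2 scale sets the combination against the sum of the single agents' differences from the control antibody. TNFR-Ig mice received no antibody, so any effect of antibody injection stays in this value. It was -3.60 ± 1.15 for Acod1 (limma adjusted p = 0.103), -1.55 ± 0.67 for Arg1 (adjusted p = 0.264) and -0.86 ± 0.35 for Slc7a2 (adjusted p = 0.223). No member was called, 0 of 6 in limma, where 0.319% of all genes were, and 3 had an unadjusted p under 0.05. Without replicate 8 of the anti-TWEAK group of experiment 10 the Acod1 value was -4.04 (limma adjusted p = 0.0462).

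Acod1 and Arg1 were higher in the combination group than in naive mice, 2 of 6 members, where 25.3% of all genes were called. Acod1 was higher by 4.13 ± 0.98 (limma adjusted p = 0.00108) and Arg1 by 3.28 ± 0.57 (limma adjusted p = 1.23e-05). Arg2 differed by 0.51 ± 0.21 (limma adjusted p = 0.0695), and was called without replicate 2 of the combination group of experiment 7 (0.55, adjusted p = 0.0459) or replicate 3 (0.58, adjusted p = 0.0284). Within experiment 10, which holds all naive mice, 3 of 6 members were called, where 29.4% of all genes were. There Acod1 was higher by 3.94 (limma adjusted p = 0.00547), Arg1 by 2.90 (adjusted p = 0.000363) and Odc1 by 0.24 (adjusted p = 0.0203). The exact two-sided permutation p was 0.00171 for Acod1, 0.00233 for Arg1 and 0.012 for Odc1. For the members not called there in limma it was 0.00326 for Arg2, 0.436 for Asl and 0.808 for Slc7a2. The Arg2 difference there was 0.40 (limma adjusted p = 0.194). Over both experiments Odc1 was not called. Of the macrophage markers 11 of 16 rose and 1 fell against naive mice, and of the neutrophil markers 6 of 11 rose. The comparisons of the combination group share its arrays.

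Experiments 10 and 7 differed for 2 of 6 members over the colitic groups, where 40.7% of all genes were called. Arg2 was higher in experiment 10 by 0.33 ± 0.12 (limma adjusted p = 0.0204), and Slc7a2 was lower by 0.58 ± 0.17 on the log2 scale (limma adjusted p = 0.00440). Acod1 differed by -0.72 (adjusted p = 0.305) and Arg1 by -0.57 (adjusted p = 0.137). In the anti-TWEAK group alone, where 32.3% of all genes were called, Slc7a2 was called (-0.90, limma adjusted p = 0.0423). In the combination group alone, where 26.2% were, Odc1 was called (0.30, limma adjusted p = 0.00547). By the labels the experiments were also separate array runs, except that some combination arrays of experiment 7 ran with experiment 10. These differences between experiments were thus not separated from differences between array runs, and the part of the run was not tested. The differences of the control antibody group from untreated colitis, and of each agent group from control antibody, were tested for a change between experiments in 4 contrasts. No member was called in any of them in limma. An unadjusted p under 0.05 was reached by 1 member each for control antibody against untreated colitis, TNFR-Ig against control antibody and the combination against control antibody, and by 0 for anti-TWEAK against control antibody. The shares of all genes called were 0.016%, 0%, 0.0319% and 1.72% in that order.

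Within the 64 colitic arrays the members were also compared array by array, as deviations from the mean of each group in each experiment. A total of 39 relations was computed, 15 of them among the 6 members and the rest with the mean levels of 4 marker lists, and 18 had an adjusted permutation p under 0.05 by Pearson's r. Acod1 and Arg1 went together, with r = 0.80 and Spearman's rho = 0.80 (n = 64, permutation p = 1e-05 for each, the smallest that 100000 permutations can give, adjusted p = 4.875e-05 and 3.9e-05). Without the 2 arrays farthest from the median of Acod1, r was 0.77, and it was 0.87 within experiment 7 and 0.77 within experiment 10. Arg1 and Arg2 had r = 0.51 and rho = 0.47 (permutation p = 0.00029 and 0.00043, adjusted p = 0.00103 and 0.00112), with 0.39 without the 2 farthest arrays and 0.52 within each experiment. Of the 15 member pairs 5 were called, and none of these held Asl or Odc1.

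**Figure D4:**
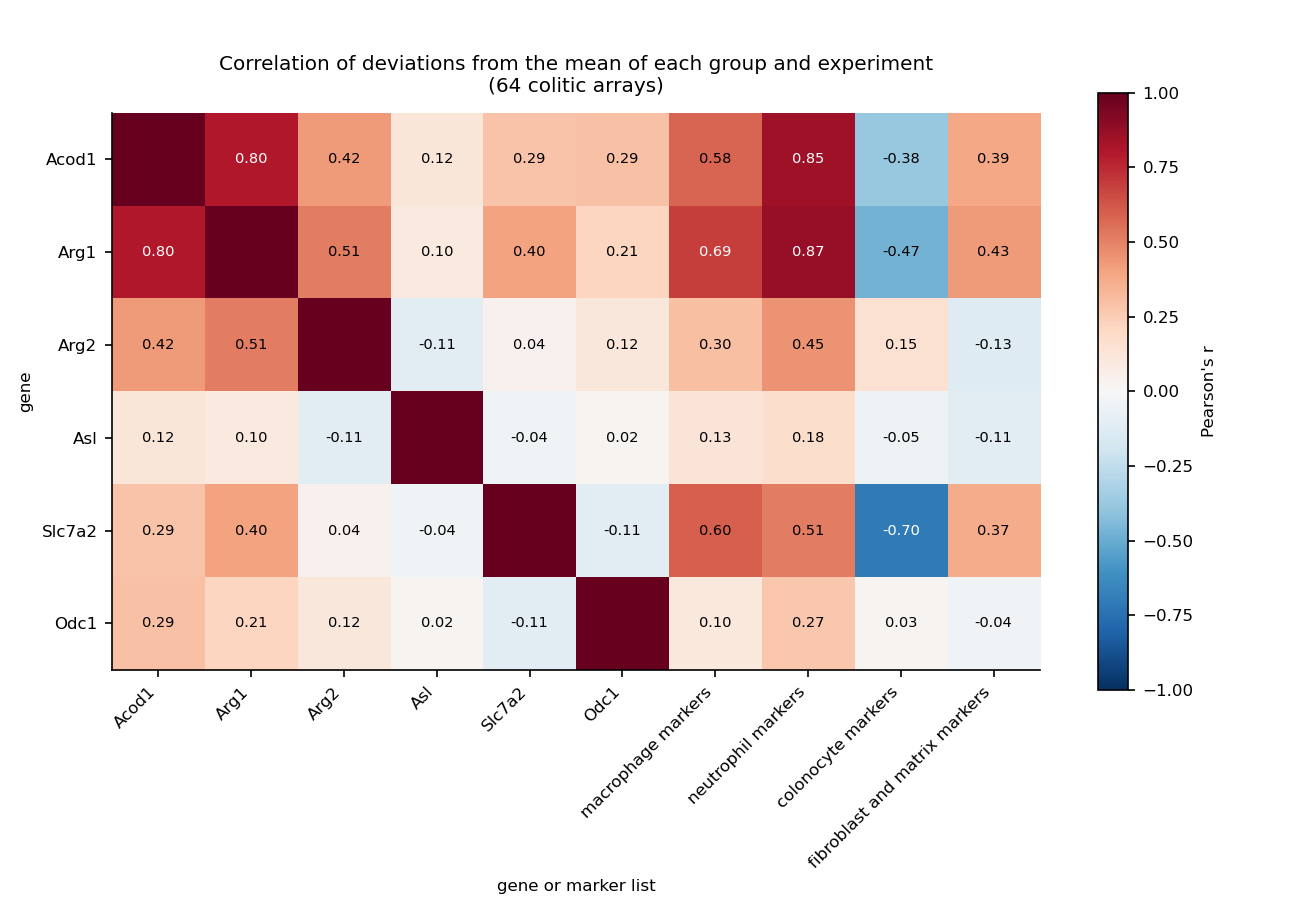
Pearson's r between deviations from group and experiment means over the 64 colitic arrays, for members against members and against marker lists. The 0.80 of Acod1 with Arg1 and the 0.85 and 0.87 of these 2 genes with the neutrophil markers are the strongest positive values, while the fields of Asl and Odc1 are closer to 0.

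The deviations also went with marker levels on the same arrays, as the correlation map shows. Acod1 had r = 0.85 and rho = 0.85 with the neutrophil markers (permutation p = 1e-05, adjusted p = 4.875e-05), with 0.83 without the 2 farthest arrays, 0.87 in experiment 7 and 0.86 in experiment 10. With the macrophage markers Acod1 had r = 0.58 and rho = 0.57 (permutation p = 1e-05, adjusted p = 4.875e-05), with 0.58 without the 2 farthest arrays, 0.64 in experiment 7 and 0.56 in experiment 10. Arg1 had r = 0.87 and rho = 0.90 with the neutrophil markers (permutation p = 1e-05, adjusted p = 4.875e-05), with 0.88 without the 2 farthest arrays, 0.85 in experiment 7 and 0.91 in experiment 10. With the macrophage markers Arg1 had r = 0.69 and rho = 0.73 (permutation p = 1e-05, adjusted p = 4.875e-05), with 0.72 without the 2 farthest arrays, 0.71 in experiment 7 and 0.67 in experiment 10. Both genes were also called with the other lists. Acod1 had r = -0.38 and rho = -0.43 with the colonocyte markers (permutation p = 0.00082 and 0.00056, adjusted p = 0.00252 and 0.00137), with -0.42 without the 2 farthest arrays, -0.40 in experiment 7 and -0.46 in experiment 10. Arg1 had r = -0.47 and rho = -0.55 with them (permutation p = 9e-05 and 1e-05, adjusted p = 0.00039 and 3.9e-05), with -0.55 without the 2 farthest arrays, -0.47 in experiment 7 and -0.58 in experiment 10. With the fibroblast markers r was 0.39 for Acod1 and 0.43 for Arg1 (permutation p = 0.00293 and 0.00323, adjusted p = 0.00714 and 0.00741), and rho was 0.36 and 0.47 (permutation p = 0.00542 and 0.00023, adjusted p = 0.0117 and 0.00069). Without the 2 farthest arrays these r were 0.40 for Acod1 and 0.46 for Arg1, with 0.36 and 0.34 in experiment 7 and 0.47 and 0.60 in experiment 10. No test of the difference between lists was made.

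Slc7a2 was called with all 4 marker lists. With the macrophage markers it had r = 0.60 and rho = 0.66 (permutation p = 1e-05, adjusted p = 4.875e-05), with 0.66 without the 2 farthest arrays, 0.61 in experiment 7 and 0.65 in experiment 10. With the colonocyte markers it had r = -0.70 and rho = -0.59 (permutation p = 1e-05, adjusted p = 4.875e-05), with -0.58 without the 2 farthest arrays, -0.75 in experiment 7 and -0.45 in experiment 10. With the neutrophil markers it had r = 0.51 and rho = 0.64 (permutation p = 1e-05, adjusted p = 4.875e-05), with 0.58 without the 2 farthest arrays, 0.48 in experiment 7 and 0.70 in experiment 10. With the fibroblast markers it had r = 0.37 and rho = 0.49 (permutation p = 0.00358 and 0.00025, adjusted p = 0.00776 and 0.000696), with 0.42 without the 2 farthest arrays, 0.33 in experiment 7 and 0.55 in experiment 10. Arg2 had r = 0.45 and rho = 0.44 with the neutrophil markers (permutation p = 0.00084 and 0.00127, adjusted p = 0.00252 and 0.00291), with 0.40 without the 2 farthest arrays, 0.45 in experiment 7 and 0.47 in experiment 10.

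**Figure D5:**
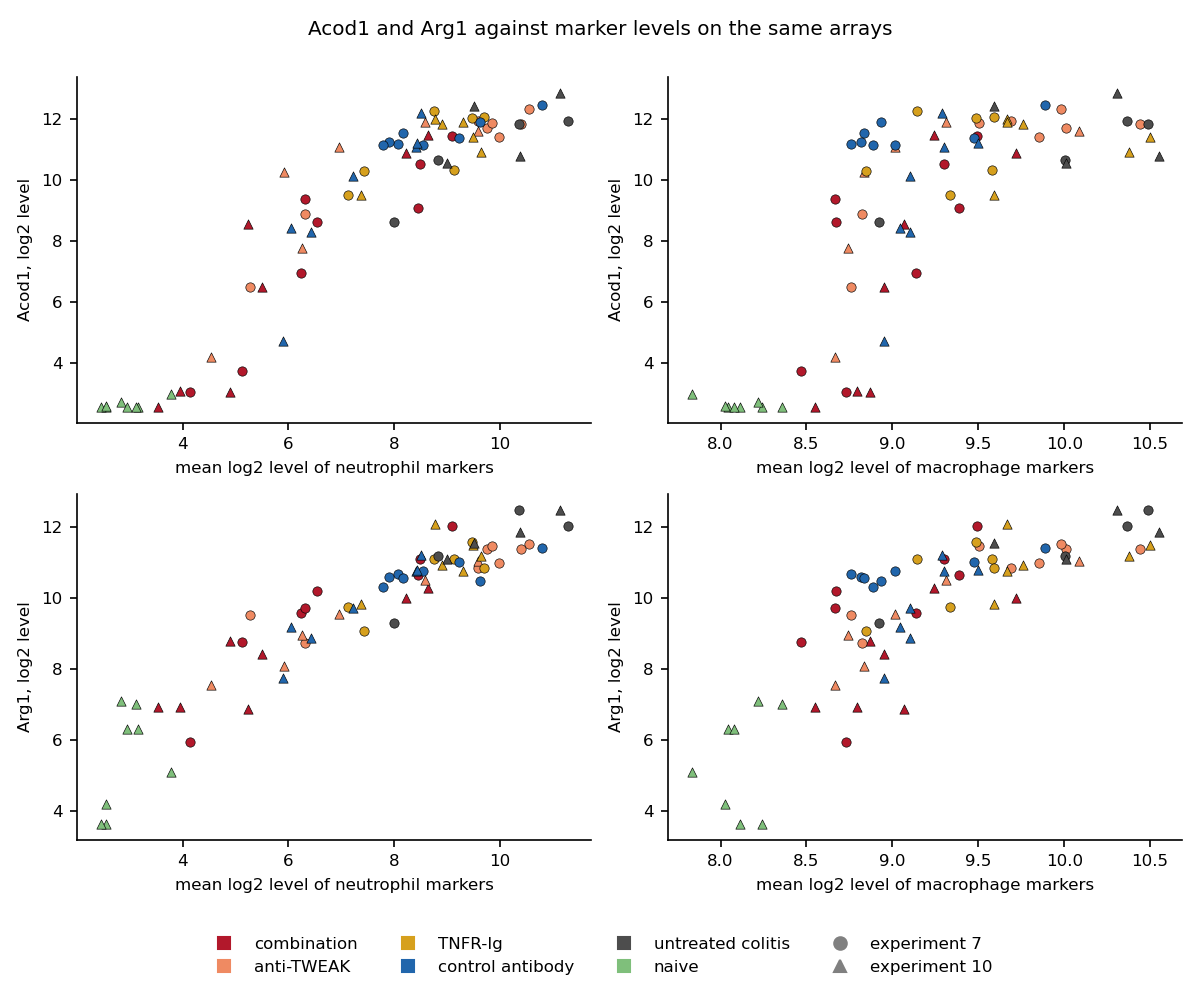
Log2 levels of Acod1 (top) and Arg1 (bottom) on each array against the mean log2 level of neutrophil markers (left) and macrophage markers (right). Colours stand for groups, circles for experiment 7 and triangles for experiment 10. Acod1 and Arg1 tend to be lower on arrays with lower neutrophil markers, with exceptions. On replicate 3 of the anti-TWEAK group of experiment 10 the neutrophil mean is 5.92 and Acod1 is 10.27. On the neutrophil axis 1 combination array lies within the naive range, and none does on the macrophage axis.

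The plots of Acod1 and Arg1 against marker levels place the arrays of all groups together. On the neutrophil axis 1 of the 15 combination arrays, at 3.53, was within the naive range of 2.45 to 3.78, and the others ran over 3.96 to 9.10. On the macrophage axis the lowest combination array was at 8.47 and the highest naive array at 8.36. The difference between these axes in overlap with naive arrays thus rests on 1 array.

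The genes whose deviations were most like those of each member over the 64 arrays, by Pearson's r, are given as a description. For Acod1 they were Ccl3 (0.98) and Cxcl3 (0.97), both chemokines, and Clec4e (0.97), a lectin receptor of myeloid cells. For Arg1 they were Stfa2l1 (0.89), itself one of the neutrophil markers, Clec4d (0.89), another myeloid lectin receptor, and Mcemp1 (0.88). For Arg2 they were Apob (0.73), the apolipoprotein of chylomicrons, Cyp4b1 (0.67), a cytochrome P450, and Vnn1 (0.64), a pantetheinase. For Slc7a2 they were Tmem38b (0.90), a cation channel of the endoplasmic reticulum, Rilpl1 (0.88) and Slc38a4 (0.87), an amino acid transporter. These r include replicate 1 of the TNFR-Ig group of experiment 7, where Slc7a2 was 9.94 with the next array at 6.95. They were not computed without it. For Asl they were Rnh1 (0.78), the ribonuclease inhibitor, Grhpr (0.76), glyoxylate reductase, and Mpv17l2 (0.75). For Odc1 they were Yars2 (0.85), a mitochondrial tRNA synthetase, Eftud2 (0.84), a spliceosome component, and Wdr61 (0.84). All arrays of a pair of genes share the same RNA and hybridisation.

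Array medians lay between 4.60 and 4.77, and the difference between the 3′ and 5′ probe sets of Actb, a sign of RNA quality, between 0.931 and 1.5004 on the log2 scale. The macrophage genes Cd68, Adgre1 and Csf1r were above the floor on all 72 arrays, and of the eosinophil markers Epx, Prg2 and Ccr3 were within 0.1 of it on all of them. Siglecf, a receptor of eosinophils, was measured at 3.87 to 7.25, fell by 0.90 in untreated colitis against naive mice (limma adjusted p = 0.000652) and rose by 0.42 in the combination against the control antibody (limma adjusted p = 0.0369). Its part in the members' values was not tested.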

How the data were processed

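RNA from the colon of 1 mouse per array was hybridised to Affymetrix arrays. The authors deposited log2 values for 45101 probe sets, and the submitters' processing notes name RMA, GCRMA, R 2.11.1 and limma 3.4.5 without giving their roles, so the normalization behind the values is not known in full. The lowest value of the table was 2.077, and 37.5% of values lay within 0.1 of it, which compresses differences of low genes. Gene symbols came from the platform annotation, updated by Entrez ID (99.4% matched). Of the probe sets, 34945 had 1 symbol, 932 several and 9160 none, and 64 were controls. The probe set with the highest mean stood for each gene, and genes below the 40th percentile of means (2.42) were left out of the tests.

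No further normalization was applied. All 72 arrays were fitted in limma 3.58.1 (R 4.3.3) with group and experiment as terms, and p-values were adjusted by Benjamini-Hochberg over 12534 genes at 0.05. Values within an experiment came from a fit with a mean for each group in each experiment. Permutation tests were two-sided and used 100000 resamples or every arrangement. The limma fit was tested on simulated data. Beside the members, genes are named by a rule: up to 4 called genes of each pathway list by size in 3 comparisons (untreated colitis against naive, control antibody against untreated colitis, and the combination against control antibody), Nos2, and the 3 genes most like each member. Marker genes named as examples were chosen after their values were seen. The members and lists were chosen with earlier results of these data known. Alternatives left out the filter, the experiment term or each array in turn, or changed the probe sets, scaling, weights, moderation or samples. Replicate numbers did not pair the arrays. The number of arrays limits the precision. Of the 7 members 2 had a promoter printed, from the RefSeq table, and 3 were found there.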

Additional observations from a re-analysis of the deposited data

Results flagged for a closer look

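Within each group and experiment, of 4 to 8 arrays, 66 sets of member values were checked for a single array far from the others, and 5 stood apart. A rate of about 1 in 20 groups flagged by chance was taken for this rule and was not checked on these data. Acod1 was 2.99 on naive replicate 5 of experiment 10, with the next array at 2.72. Asl was 10.39 on replicate 7 of the TNFR-Ig group of experiment 10, with the next at 10.18. Slc7a2 was 9.94 on replicate 1 of the TNFR-Ig group of experiment 7, with the next at 6.95, and 7.81 on replicate 5 of the control antibody group of experiment 7, with the next at 6.33. Odc1 was 12.57 on replicate 3 of the untreated colitis group of experiment 7, with the next at 12.77. The Slc7a2 values of these 2 arrays enter the comparisons whose calls changed when an array was left out.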

How the results depend on the processing

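Over the alternatives, single-member values that were called stayed called in 142 cases and lost the call in 20, with no change of direction, and those not called stayed so in 457 cases, were called in 43 and changed direction in 22. The cause was not tested except where fewer arrays or genes were used by construction. Counts of called members moved as follows. For control antibody against untreated colitis 0 became 1 with the replicate block, 1 in experiment 10 alone, 2 with array weights and 1 with the exocrine pancreas covariate, and 0 to 2 when 1 array was left out. For TNFR-Ig against control antibody 0 became 2 in experiment 10 alone, and 0 to 1 without 1 array. For the combination against control antibody 2 became 1 with no filter on dim genes, 1 with the replicate block, 1 in experiment 7 alone and 0 in experiment 10 alone, and 1 to 3 without 1 array. For the combination against TNFR-Ig 2 became 0 in experiment 7 alone and 1 with the compared groups alone. For the combination against anti-TWEAK 0 became 2 with array weights and 1 with the covariate, and 0 to 1 without 1 array. For the departure from additivity 0 became 1 in experiment 10 alone and 3 with array weights, and 0 to 1 without 1 array. For experiment 10 against 7, 2 became 1 with array weights, and 18 correlations became 9 in experiment 7 alone.

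Array weights, which give arrays far from their group less weight, put Acod1 at -3.61 in the combination against anti-TWEAK (limma adjusted p = 0.00213). Values that changed direction had an adjusted p over 0.05 in each comparison concerned. Against untreated colitis, Acod1 was 0.73 with control antibody in experiment 7 alone. With TNFR-Ig it was 0.45 with the replicate block, 0.32 in experiment 7 alone, 0.13 with array weights and -0.48 to 0.27 without 1 array. For TNFR-Ig against control antibody in experiment 7 alone, Acod1 was -0.41, Arg1 -0.16 and Arg2 -0.074. For anti-TWEAK against control antibody, Acod1 was 0.023 in experiment 10 alone and -0.73 to 0.10 without 1 array, Arg2 was -0.064 in experiment 7 alone and Slc7a2 -0.085 in experiment 10 alone. For the combination against control antibody in experiment 10 alone, Arg2 was 0.11, Slc7a2 -0.18 and Odc1 0.020. Arg2 was 0.011 with quantile normalization, 0.075 with the covariate and -0.064 to 0.089 without 1 array there, and Slc7a2 was -0.0040 with the covariate. The departure from additivity of Arg2 was 0.035 in experiment 7 alone. Asl was -0.013 between the experiments with quantile normalization and -0.0065 to 0.019 without 1 array. The replicate block rests on shared numbers only, since same-numbered arrays had a mean correlation of -0.02 in experiment 7 and 0.0068 in experiment 10.

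Levels at the floor bound what can be said of Ass1 and Nos2. Naive mice were in 1 experiment only, and the combination arrays numbered 7 and 8 of experiment 7 ran with the other experiment per the labels.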
